A study of Homo sapiens with 6 samples.

Results

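The genes described here are 9 keratins of basal and stressed epithelia, KRT5, KRT14, KRT15, KRT16, KRT17, KRT6A, KRT6B, KRT80 and KRT81, together with the transcription factor gene TP63. They were chosen by symbol from a table of 60675 genes, and all 10 were found in it. Their RNA was measured in SUM159, a human cell line established from a triple-negative breast tumour and grown with 5% serum, hydrocortisone at 1 µg/mL, insulin at 5 µg/mL and 10 mM HEPES. There were 3 control libraries with the genotype DAPK3 WT and 3 libraries with the genotype DAPK3 KO, all 3 from the knockout line numbered 3, so an effect of the knockout and a property of that line cannot be told apart. The labels are silent on whether each library is a culture of its own, so p-values cover only library-to-library spread, which may be technical.

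Keratins are the intermediate filament proteins of epithelial cells. Each filament pairs an acidic type I chain with a basic type II chain, so KRT14 or KRT17 needs a type II partner such as KRT5 or KRT6A. KRT5 and KRT14 are the classical pair of the basal layer of skin and of basal mammary cells, while KRT6A, KRT6B, KRT16 and KRT17 are induced when the epidermis is wounded or hyperproliferative. p63, the product of TP63, is the lineage factor of stratified epithelia and is known to act on the KRT5 and KRT14 genes. DAPK3 is a serine/threonine kinase best known for acting on myosin light chain and cell death.

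All 9 keratin genes lie on the minus strand of 2 clusters in GRCh38, and all 10 genes are protein-coding in GENCODE release 29. On chromosome 12 are the type II genes KRT80 (52168996 to 52192000), KRT81 (52285913 to 52291534), KRT6B (52446651 to 52452126), KRT6A (52487174 to 52493257) and KRT5 (52514575 to 52520687). On chromosome 17 are the type I genes KRT15 (41513743 to 41522529), KRT14 (41582279 to 41586921), KRT16 (41609778 to 41615899) and KRT17 (41619441 to 41624842). TP63 lies on the plus strand of chromosome 3, from 189631416 to 189897279.

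KRT6A and KRT6B, which differed widely in level, are near copies, and their sequences are shown because they decide how reads can be divided between them. Their coding sequences, each 1692 bases long in GENCODE release 29, differ at 42 positions and are 97.5% identical. The 60 coding bases with most differences, positions 663 to 722 counted from the A of the start codon, hold 9 of them, which are in capitals:
KRT6A: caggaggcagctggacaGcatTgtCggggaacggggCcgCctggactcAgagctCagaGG
KRT6B: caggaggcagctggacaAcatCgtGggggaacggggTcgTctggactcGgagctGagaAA
Of all stretches of 100 bases in the KRT6A transcript, 18.2% also occur in a transcript of another keratin gene or keratin pseudogene, most of them in KRT6C, and for KRT6B the share is 24.6%. It is 30.3% for KRT81, whose gene overlaps KRT86 on the opposite strand and which shares sequence mainly with it. The share is 7.18% for KRT16, 5.95% for KRT14, 1.44% for KRT5 and 0.322% for KRT17, and 0 such stretches are shared for KRT15, KRT80 and TP63. In stretches of 50 bases the shares were larger: 47.1% for KRT6B, 44.6% for KRT81 and 39.1% for KRT6A. They were 23.8% for KRT14, 22% for KRT16, 16% for KRT17 and 3.99% for KRT5. Which length applies depends on the reads, whose length is not stated here. The authors' counting program divides shared reads by estimate, so KRT6B and KRT81 are the least certain values here. KRT6A, KRT14, KRT16 and KRT17 are less exposed but not free of shared reads.

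The KRT5 promoter is shown because KRT5 had the widest fold range of the 10 genes over the libraries, from 2.55 to 222 CPM, and is a textbook p63 target. RefSeq's promoter table for GRCh38.p14 matched 2 of the 10 genes, KRT5 and TP63. The 250 bases before the KRT5 start, chr12:52520395-52520644 on the minus strand, are printed below. A match to the half-site of the p53 family, to which p63 belongs, is in capitals. That motif is not specific to p63. RefSeq's start lies inside the GENCODE span given above, so this window falls within that span:
KRT5: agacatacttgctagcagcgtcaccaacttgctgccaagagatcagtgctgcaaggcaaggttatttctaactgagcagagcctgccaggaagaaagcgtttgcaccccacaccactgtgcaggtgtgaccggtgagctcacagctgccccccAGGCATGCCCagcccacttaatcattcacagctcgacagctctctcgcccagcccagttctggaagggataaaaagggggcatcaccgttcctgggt
The match begins 97 bases before the start, and 5.57% of the 35116 promoters in that table hold such a half-site on either strand in a window of the same length. The AP-1 motif TGANTCA, the TATA box TATAAA and the GC box GGGCGG, searched on both strands, were not found in this window of KRT5, and 6.57%, 10.7% and 42.6% of promoters hold them. The window before the TP63 start, chr3:189631139-189631388, lies ahead of the whole GENCODE span of the gene. It held none of these 4 motifs, and starts inside the TP63 gene were not searched. A match describes the letters only, and variants of these letters were not searched. The KRT5 window holds gataaa, which differs from TATAAA in its first letter only.

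Levels below are expected counts scaled to CPM (counts per 1000000, with TMM factors), read in the order R1, R2, R3 within each group. A library held between 16312184 and 22970823 expected counts. In both groups 1 library had DAPK3 RNA that did not follow its label. From low to high, DAPK3 measured 10.6 CPM in the library labelled control R2, 11.3 in KO R3, 13.1 in KO R1, 25.9 in control R3, 26.1 in control R1 and 27.0 in the library labelled KO R2. The group means were 20.9 ± 8.91 CPM for control and 17.1 ± 8.58 CPM for KO (SD, n = 3). A genotype cannot be read from RNA level alone. No library was moved to another group, and whether the labels of these 2 libraries were exchanged was not tested. Every comparison is given for the labels as deposited and again without both R2 libraries, which leaves 2 libraries a group and was chosen after seeing the data.

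Among the basal keratins, KRT5 and KRT14 stood high in the 3 libraries with the lowest DAPK3 RNA, whatever their label, and KRT15 did not. KRT5, the type II basal keratin, stood at 3.56, 124 and 2.55 CPM in control and at 48.3, 6.55 and 222 CPM in KO. Control R2 lay within the range of the KO libraries, so the labelled groups overlapped. KRT14, the type I partner of KRT5, stood at 0.585, 10.6 and 0.449 CPM in control and at 5.89, 0.613 and 11.3 CPM in KO, again with control R2 inside the KO range. The low values rest on 9 to 12 expected counts, and the exact 95% counting interval was 0.302 to 1.02 CPM in control R1 and 0.294 to 1.13 CPM in KO R2. These intervals cover counting error only. Fewer cells of a type and less RNA per cell cannot be told apart in bulk RNA, for this or any later value.

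KRT15, a type I keratin of basal and hair follicle stem cells, stood at 2.44, 3.82 and 1.05 CPM in control and at 1.17, 1.41 and 1.36 CPM in KO. Its highest library was control R2 and its lowest control R3, so the 3 KO libraries lay inside the control range. With 21.31 to 79 expected counts per library, its order did not run with DAPK3 RNA: KO R1 and KO R3, at 1.17 and 1.36 CPM, were close to control R3 and KO R2.

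Of the stress keratins, KRT6A, KRT16 and KRT17 followed the same division of the libraries as KRT5. KRT6A, a type II keratin, stood at 91.4, 436 and 78.8 CPM in control and at 201, 83.1 and 286 CPM in KO. Control R2 was the highest library of all and KO R2 lay between the remaining controls, so no order by label was visible. KRT6B, its near copy, stood at 0.0974, 0.966 and 0.15 CPM in control and at 0.318, 0.0613 and 0.132 CPM in KO. It rested on 1.03 to 19.88 expected counts and was above 0.5 CPM in control R2 alone. It did not pass the filter on low counts, and without that filter its log2 fold change by label was −1.21 (SE 0.96, edgeR adjusted p = 0.74). KRT6C, the third copy, had at most 0.0966 CPM.

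KRT16, a type I wound keratin, stood at 0.341, 3.33 and 0.299 CPM in control and at 4.51, 1.04 and 6.15 CPM in KO. Control R2 was above KO R2 but below the other KO libraries, and KO R2 was 3.05-fold above control R1 and 3.48-fold above control R3. KRT17, a type I keratin of wounds, appendages and many basal tumours, stood at 1.12, 33.2 and 1.85 CPM in control and at 29.1, 3.98 and 61.0 CPM in KO. The groups overlapped through control R2, while KO R2 was 3.55-fold above control R1 and 2.16-fold above control R3. KRT5 was likewise 1.84-fold and 2.58-fold higher in KO R2 than in control R1 and R3. For KRT6A the same ratios were 0.909 and 1.05, for KRT14 1.05 and 1.36, and for TP63 1.03 and 1.42. The exact intervals of KRT17, 3.07 to 5.07 CPM in KO R2 against 0.710 to 1.68 in control R1 and 1.30 to 2.55 in control R3, did not overlap, but 1 library against 2 gives no replicate check.

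KRT80, a type II keratin of many epithelia, was the member whose labelled groups did not overlap. It stood at 277, 371 and 342 CPM in control and at 536, 399 and 492 CPM in KO, with means of 330 ± 48.0 and 476 ± 69.9 CPM (SD, n = 3). The lowest KO library, KO R2, was above the highest control library, control R2. Among all 14613 genes tested, 6.60% had every KO library above every control library and 6.98% every KO library below, so 1 such gene among 10 members is near the background.

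KRT81, a type II hair keratin also found in breast cancer cells, was high where KRT5 was low. It stood at 2.78, 0.0483 and 2.89 CPM in control and at 0.106, 3.92 and 0.220 CPM in KO. The 3 libraries with the highest DAPK3 RNA held 57 to 64 expected counts and the other 3 held 1 to 5.4. KRT86, which overlaps it on the opposite strand, had a smaller range in the same order, at 0.779, 0.193 and 1.5 CPM in control and 0.265, 1.65 and 0.395 CPM in KO. Without a stated strand setting, reads of KRT81 and KRT86 cannot be told apart with certainty.

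TP63 stood at 48.2, 109 and 35.2 CPM in control and at 79.1, 49.8 and 114 CPM in KO. Its library order was that of KRT14, from KO R3 and control R2 at the top to control R3 at the bottom, over a narrower range. The values are for the whole gene and do not separate its isoforms with and without the transactivation domain.

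**Figure D1:**
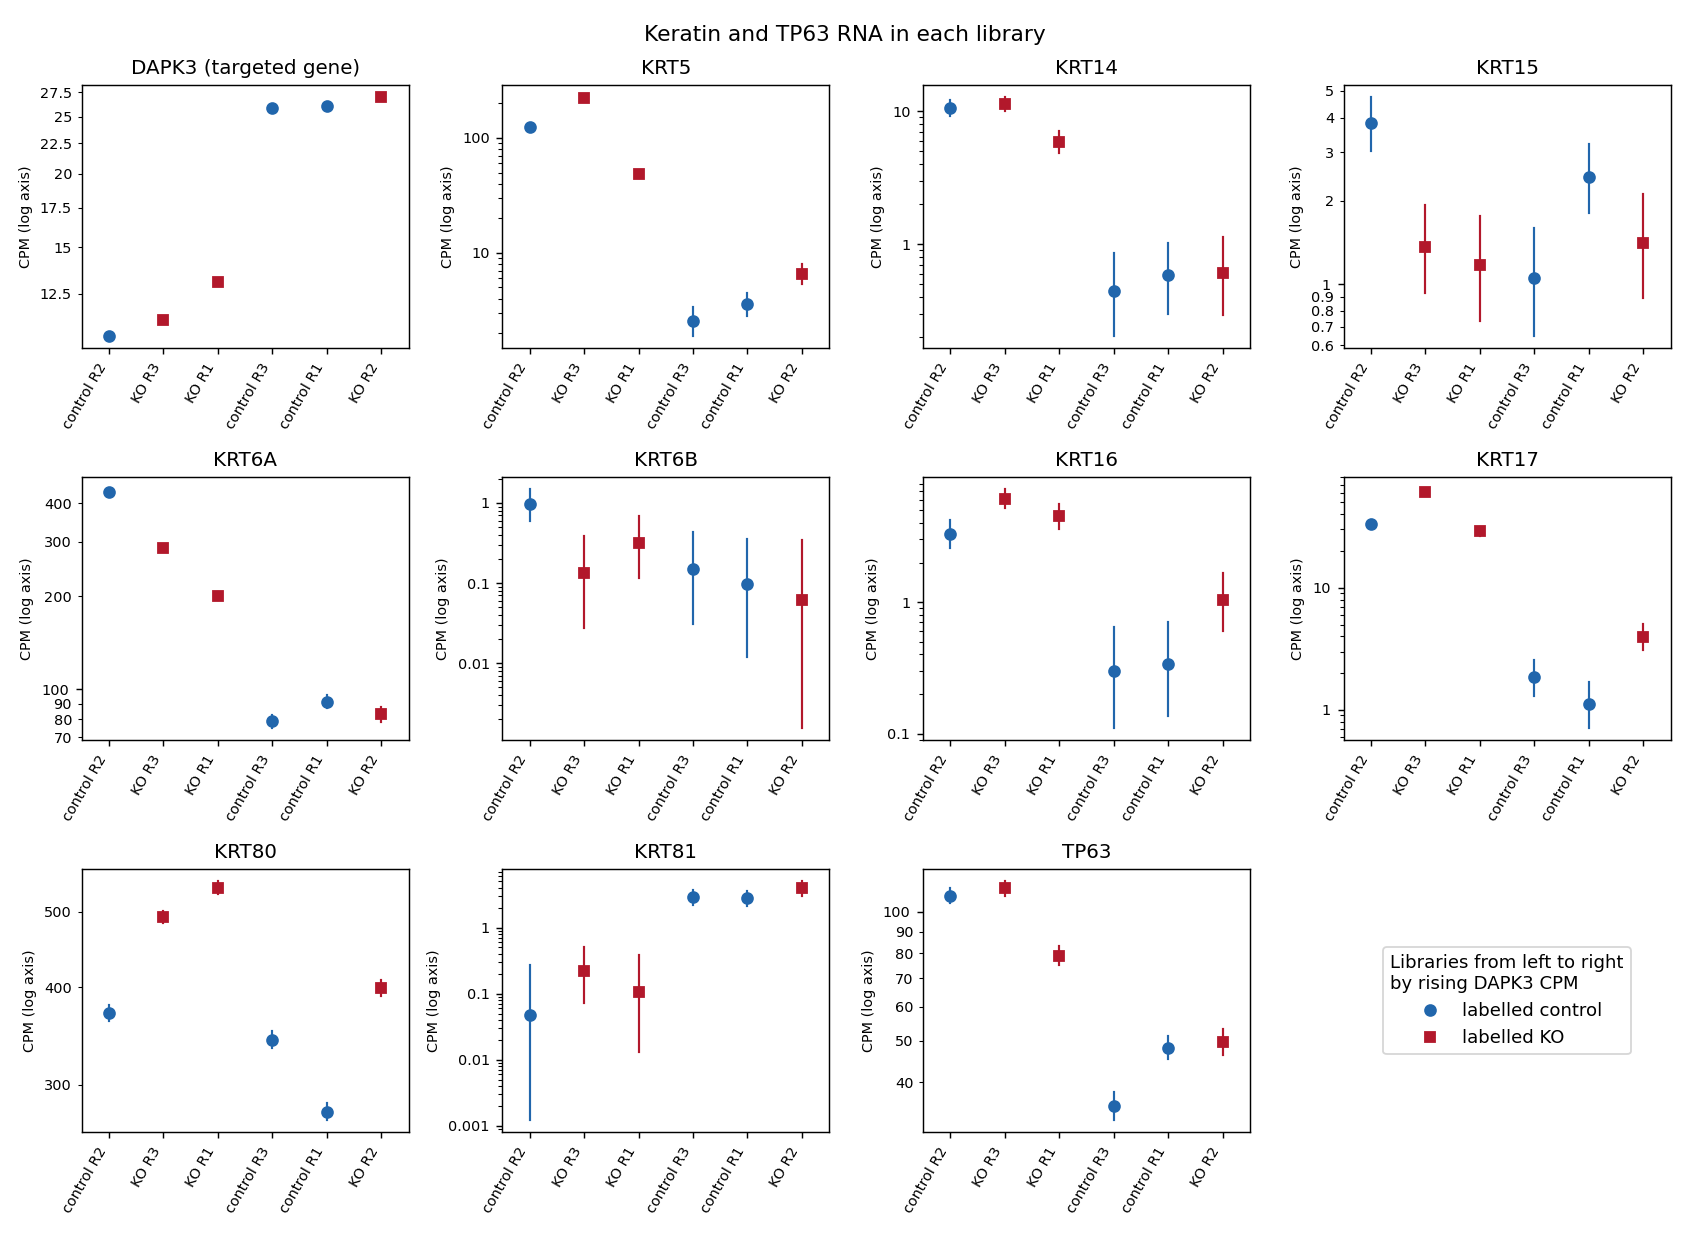
CPM on a log axis for DAPK3 and each of the 10 genes, 1 panel a gene, in the 6 libraries ordered by rising DAPK3 CPM; circles are libraries labelled control, squares libraries labelled KO, and bars exact 95% counting intervals (not drawn for DAPK3). KRT5, KRT14, KRT16, KRT17, KRT6A and TP63 are high in control R2, KO R3 and KO R1, KRT81 is high in the other 3, and KRT80 separates by label.

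The comparison of the labels asked which genes differ between the 3 KO and 3 control libraries, and edgeR's quasi-likelihood test called 0 of the 9 members tested. Over all 14613 genes it also called 0 at an adjusted p under 0.05, a share of 0%. An unadjusted p under 0.05 was reached by 1119 genes, or 7.66% (3.49% higher and 4.17% lower in KO), among them 1 member, KRT80, higher in KO. limma-voom called 0 genes, and DESeq2 called 114 (0.780%) of which 0 were members, although its adjusted p was NA for KRT15, KRT16 and KRT81. For KRT80 the log2 fold change was 0.53 (SE 0.16), with an edgeR adjusted p of 0.63. Its adjusted p ran from 0.13 with DESeq2 to 1 over the settings that kept both R2 libraries or left out 1 library. The remaining fold changes did not pass the test: KRT5 had 1.09 (SE 1.65), KRT17 1.38 (SE 1.39) and KRT16 1.56 (SE 1.05). KRT14 had 0.62 (SE 1.37), TP63 0.33 (SE 0.47), KRT6A −0.09 (SE 0.74) and KRT81 −0.45 (SE 1.51), while KRT15 had −0.88 (SE 0.48, edgeR adjusted p = 0.69). The signs of KRT5 and KRT14 rested on KO R3, without which they stood at −0.66 and −0.25. Without control R2, KRT5 stood at 4.89, KRT17 at 4.37, KRT16 at 3.56 and KRT14 at 3.49, of which 0 were called, while KRT17 was 0.46 and KRT16 1.06 without KO R3. KRT15 ran from −1.25 without control R3 to −0.43 without control R2.

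Because the libraries differed so much along DAPK3 RNA, the labels were also compared with log2 DAPK3 CPM as a numeric term in the same fit. The label fold change of KRT17 was then 1.2 (SE 0.21, edgeR adjusted p = 0.11), that of KRT16 1.35 (SE 0.28, edgeR adjusted p = 0.12) and that of KRT80 0.46 (SE 0.12, edgeR adjusted p = 0.15). No member passed, and edgeR called 0 of 14613 genes. An unadjusted p under 0.05 was reached by 5 of 9 members, KRT5, KRT16, KRT17 and KRT80 higher and KRT15 lower in KO, beside 2457 genes or 16.8% of all genes tested (8.46% higher and 8.36% lower). The errors of KRT14 at 0.32 (SE 0.23), KRT6A at −0.25 (SE 0.14) and TP63 at 0.14 (SE 0.15) were also several times smaller than without the term. DAPK3 is itself a measured level of these libraries and the targeted gene, so the term can take up part of what the label stands for. Its values fell in a low range, 10.6 to 13.1 CPM, and a high range, 25.9 to 27.0 CPM. Control R2 was the only control library in the low range, and KO R2 the only KO library in the high range. The label term therefore leans on these R2 libraries, which have no replicate in their range.

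Without both R2 libraries, 8 of the 9 members tested passed edgeR's test between KO R1 and R3 and control R1 and R3. Here 27.3% of all 14846 genes tested were called, 12.2% higher and 15.2% lower in KO, and the libraries left out were chosen because their DAPK3 RNA did not follow the label. Every KO library was above every control library for 33.8% of genes and below for 32.4%; for the members this was 7 and 1. KRT5 rose by 5.44 on the log2 scale (SE 0.75, edgeR adjusted p = 0.003), KRT17 by 4.89 (SE 0.44), KRT14 by 4.02 (SE 0.45) and KRT16 by 4.0 (SE 0.40). KRT6A rose by 1.49 (SE 0.18), TP63 by 1.18 (SE 0.21, edgeR adjusted p = 0.0084) and KRT80 by 0.70 (SE 0.15, edgeR adjusted p = 0.013). KRT81 was the 1 member that was lower, at −4.07 (SE 0.49, edgeR adjusted p = 0.0018), a value that rests on 2 and 5.4 expected counts in KO R1 and KO R3. KRT15 did not pass, at −0.48 (SE 0.47, edgeR adjusted p = 0.49). DESeq2 and limma-voom also called 8 members. Of all 4055 genes called, 68.1% had both R2 libraries on the side of the opposite label, and of the 8 members called KRT80 was the exception.

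**Figure D2:**
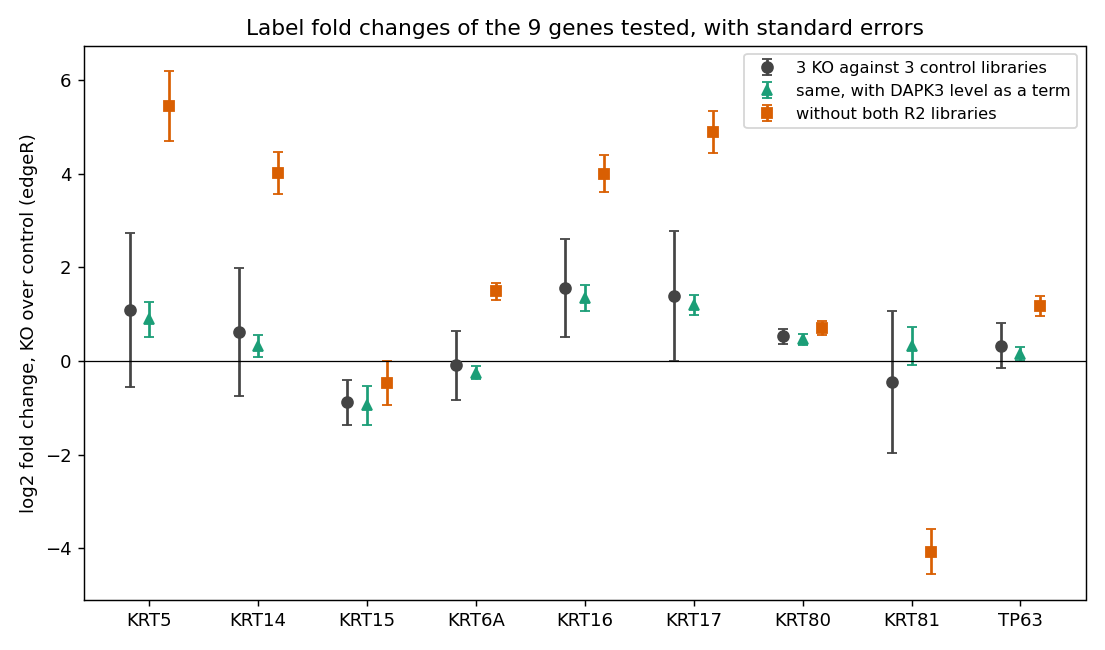
Log2 fold change of KO over control from edgeR (vertical axis) for the 9 genes tested, with standard errors as bars; circles are all 6 libraries, triangles the same with the DAPK3 level as a term, squares the 4 libraries without both R2. For KRT5 the value is 1.09, 0.89 and 5.44 in the 3 fits, while KRT80 stays between 0.46 and 0.70.

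Markers of other cell types were read beside these members. Summed blood markers ran from 11.8 to 15 CPM in control and 12.9 to 16.6 in KO, and 1 of 4 tested, PTPRC, was lower without both R2 libraries, beside 15.2% of all genes. It stood at 2.97, 0.0483 and 2.89 CPM in control and at 0.106, 3.25 and 0 CPM in KO. Summed endothelial and stromal markers ran from 78.5 to 662 CPM in control and 62.9 to 562 in KO, with CDH5 at 0 in all libraries, and 4 of 6 tested were lower without both R2 libraries, beside the same 15.2%. COL1A1 held most of that sum, at 490, 64.6 and 620 CPM in control and 57.1, 535 and 56.2 CPM in KO. Their part in the keratin values was not tested. The 13 mitochondrial transcripts summed to 44100 to 68500 CPM in control and 42000 to 53800 in KO, and 0 of 13 were called in either comparison.

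The genes that followed 1 division of the libraries still differed in detail. KRT5 was 4.60-fold higher in KO R3 than in KO R1, a ratio that 0.181% of the 13296 genes tested with a mean of at least 1 CPM reached in either direction. The median absolute log2 ratio between those 2 libraries was 0.19. KRT17 differed 2.10-fold and KRT14 1.92-fold in the same direction, TP63 1.44-fold, KRT6A 1.43-fold and KRT16 1.36-fold, while KRT80 stood at a ratio of 0.917. Control R2, placed by DAPK3 beside these 2, had 2.17-fold the KRT6A of KO R1 and 1.52-fold that of KO R3, but only 0.739 and 0.542 of their KRT16. KRT5 and KRT6A, neighbours on chromosome 12, thus had different orders over these libraries: KO R3 was highest for KRT5 and control R2 for KRT6A.

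Distances between library profiles, given as the root mean square difference of centred log2 CPM over the 6 libraries, put KRT5 nearest to KRT17 (0.59) and KRT14 (0.68), and KRT14 nearest to KRT17 (0.58). KRT6A was nearest to TP63 (0.40) and farther from KRT5 (1.63). KRT81 was at least 2.21 from each of the other 9. Profiles were not scaled, so a distance depends on the size of each gene's spread as well as on its library order. The root mean square from the gene's own mean was 2.51 for KRT5, 0.96 for KRT6A, 0.63 for TP63 and 0.32 for KRT80. KRT80, which separated by label, was 0.51 from TP63, so a small distance need not mean a shared pattern. All these distances are descriptions of 6 libraries that share 1 main division.

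Outside the 10 genes, the nearest profiles were as follows, at the same measure. KRT5 had MIR205HG, the host transcript of the epithelial microRNA gene MIR205, at 0.53, the interferon-induced RSAD2 at 0.58 and CX3CL1 at 0.59. KRT14 had RAET1L at 0.29, with MIR205HG and TMEM63C both at 0.33. MIR205HG stood at 3.31, 72.9 and 2.59 CPM in control and at 51.9, 3.55 and 88.4 CPM in KO. KRT17 had OASL at 0.28, CDH3, encoding P-cadherin, at 0.34 and the interferon-induced RSAD2 at 0.42. KRT16 had TMEM40 at 0.21 and AREG, encoding the EGFR ligand amphiregulin, at 0.31. KRT6A had CAMK4 at 0.12 and LRP4 at 0.13, KRT81 had ITGB3, encoding integrin beta 3, at 0.17, and TP63 had NDE1 at 0.07. KRT80 had PRNP, encoding the prion protein, at 0.02, with 391, 512 and 469 CPM in control and 736, 554 and 667 CPM in KO. KRT15 had CXCR6 at 0.11, which like it was highest in control R2.

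Per kilobase of transcript, which allows levels to be compared between genes, the members were a minor share of keratin RNA. They made up 9.21%, 19.7% and 11.7% of the reads per kilobase of 55 keratin genes in the control libraries and 18.9%, 10.3% and 20.0% in the KO libraries. Per kilobase of coding sequence the shares were 15.3%, 25.1% and 19.9% in control and 27.9%, 17.9% and 26.5% in KO. The most abundant keratin was KRT7, a simple epithelial type II keratin, at 533 to 846 CPM per kilobase over the 6 libraries. KRT80, at 71.8 to 139, and KRT6A, at 34.1 to 189 CPM per kilobase, were the most abundant members. KRT5 ran from 1.01 in control R3 to 87.8 CPM per kilobase in KO R3, and KRT17 from 0.679 in control R1 to 36.9 in KO R3. KRT14 reached 6.82, KRT16 3.74, KRT81 2.03, KRT15 0.729 and KRT6B 0.423 CPM per kilobase.

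Type II chains outweighed type I chains among the members in every library. Per kilobase, the type II members KRT5, KRT6A, KRT6B, KRT80 and KRT81 together were 67.1, 11.4 and 70.8 times the type I members KRT14, KRT15, KRT16 and KRT17 in the control libraries. In the KO libraries they were 10.2, 39.1 and 7.11 times. KRT80 held much of the type II sum: without KRT80 and KRT81 the ratios were 24.1, 8.14 and 19.9 in control and 4.4, 10.5 and 4.44 in KO. Per kilobase of coding sequence the ratios of all members were 79.5, 15.7 and 111 in control and 17.7, 66.4 and 10.9 in KO. KRT5 was 3.72 to 12.9 times its partner KRT14 per kilobase over the 6 libraries, the highest ratio being in KO R3. KRT18, a simple type I keratin outside the members, stood at 175 to 291 CPM per kilobase. KRT75, a type II keratin of hair follicles, was picked out after its values were seen. It stood at 425, 890 and 345 CPM in control and at 584, 305 and 811 CPM in KO, the same split of high and low libraries as KRT6A, and had a log2 fold change of 0.03 (SE 0.45) by label and 0.83 (SE 0.18, edgeR adjusted p = 0.017) without both R2 libraries.

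**Figure D3:**
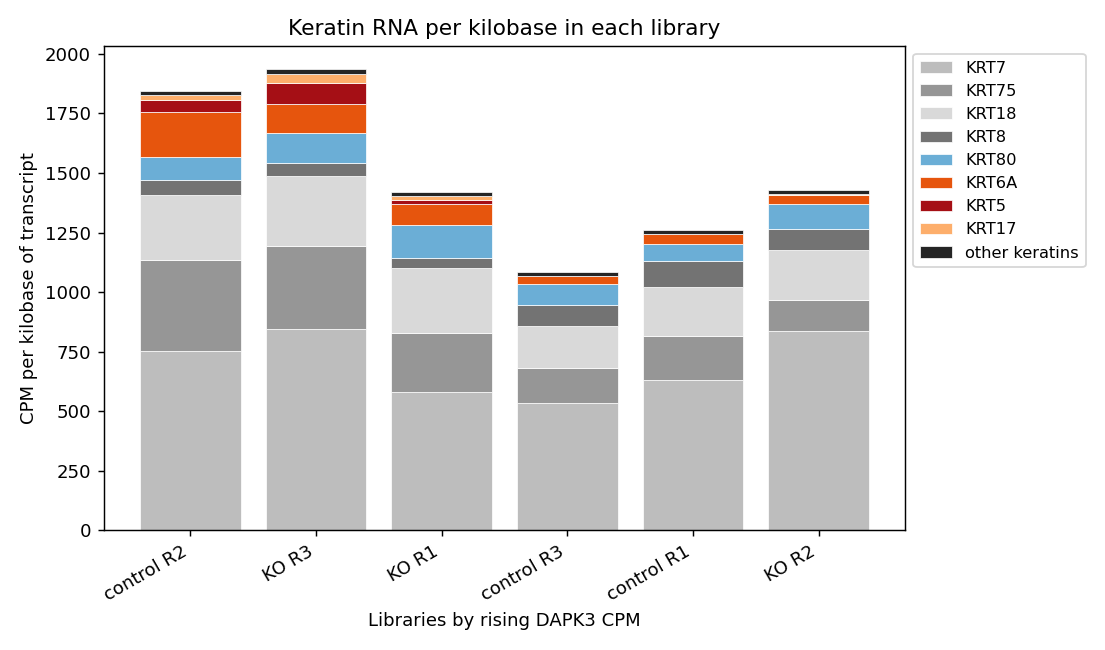
Stacked bars of keratin CPM per kilobase of transcript (vertical axis, from 0) in the 6 libraries by rising DAPK3 CPM, with the 8 most abundant keratins and the sum of the others. KRT7 is the largest part of every bar, KRT80 is present at 71.8 to 139, and the KRT5 and KRT17 parts are visible in the 3 left bars.

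Genes of basal epithelial cells linked to p63 were read from a list of 29 beside the members. In the comparison of the labels 22 were tested and 0 called, 1 was higher and 0 lower at an unadjusted p under 0.05, and the median log2 fold change was 0.19 beside 0.00 over all genes. Without both R2 libraries, 12 of 23 were called higher and 1 lower, with a median of 0.62 beside −0.02 over all genes, so the 12 higher stand beside the 12.2% given above for all genes. The 3 most expressed were ITGA3, COL7A1 and COL17A1, which encode an epithelial integrin chain, the collagen of anchoring fibrils and the hemidesmosome collagen. COL17A1 stood at 18.9, 544 and 24.0 CPM in control and at 675, 19.0 and 576 CPM in KO, and was higher by 4.84 (log2, SE 0.18, edgeR adjusted p = 3.2e-05) without both R2 libraries. Other classical genes of stratified epithelia in this list were near 0 in every library: PKP1 had at most 0.0966 CPM, DSG3 at most 0.265 and ZNF750 at most 0.0613.

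TP73, the gene of another member of the p53 family, stood at 5.11, 17.8 and 5.69 CPM in control and at 6.21, 2.57 and 10.3 CPM in KO. Its groups overlapped, and it did not pass without both R2 libraries, at 0.59 (SE 0.30, edgeR adjusted p = 0.19). CDKN1A, encoding the cell cycle inhibitor p21, was not called by label and was higher by 1.10 (log2, SE 0.17, edgeR adjusted p = 0.0043) with both R2 libraries left out.

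Wound and keratinocyte activation genes, a list of 25, were partly silent. Of the 25, 17 had any count, and S100A7, SPRR1A, SPRR1B, SPRR3 and IL36G were among those with 0 expected counts in all 6 libraries. Of 9 tested, 0 were called by label, with a median log2 fold change of 1.06. In the 4 libraries without R2, 7 were higher and 1 lower, with a median of 2.19, beside 12.2% and 15.2% of all genes. EREG and AREG, which encode EGFR ligands, and SERPINB5, encoding maspin, were the most expressed. AREG stood at 23.4, 102 and 17.5 CPM in control and at 150, 40.9 and 186 CPM in KO, and EREG at 77.4, 149 and 79.8 and at 216, 121 and 193 CPM. In both genes KO R2 was above control R1 and R3, as it was for KRT16 and KRT17. HBEGF, another EGFR ligand, was the 1 lower gene, at −1.11 (SE 0.32, edgeR adjusted p = 0.039).

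A list of keratin cytolinkers, most of which tie keratin filaments to junctions and other filaments, had 0 of 9 called by label. Its median log2 fold change was 0.37. With both R2 libraries left out, 6 were higher and 1 lower, with a median of 1.10, again beside 12.2% and 15.2% of all genes. The 3 most expressed, MACF1, DST and PLEC, were not among the higher. DST, also the lower gene of the p63-linked list, was at −0.83 (SE 0.11, edgeR adjusted p = 0.003). The DST values are for the whole gene and do not separate its hemidesmosome isoform from the others. PLEC, encoding plectin, stood at −0.50 (SE 0.16, edgeR adjusted p = 0.053) and MACF1 at 0.20 (SE 0.15).

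**Figure D4:**
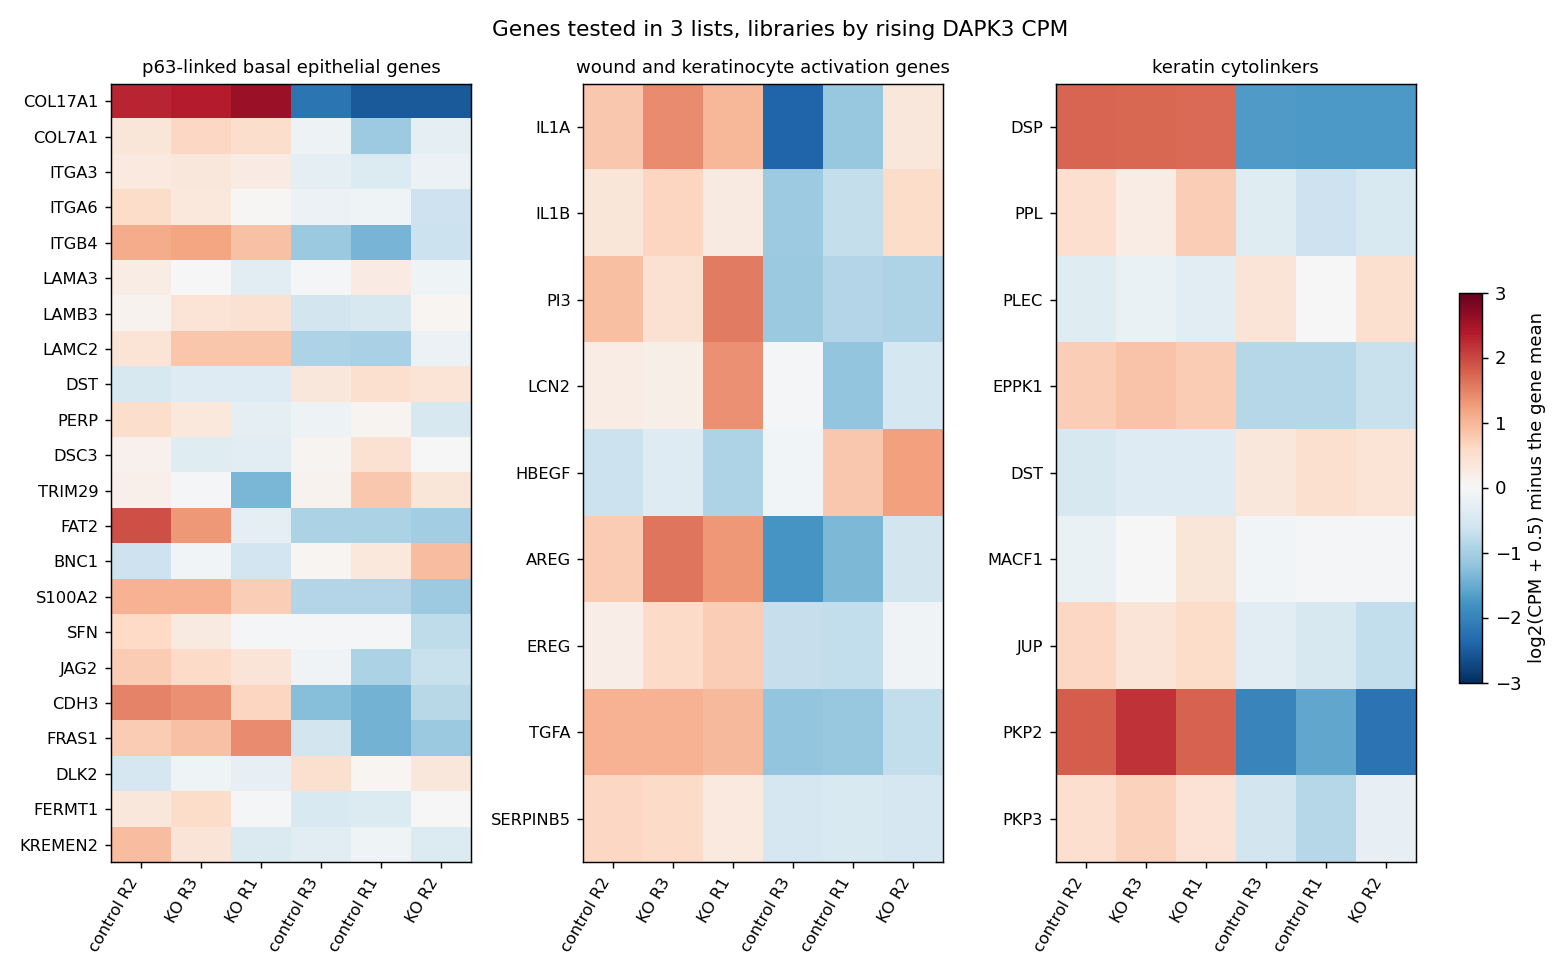
Heat maps of log2(CPM + 0.5) minus each gene's mean (colour) for the genes tested in 3 lists, genes in rows and the 6 libraries in columns by rising DAPK3 CPM. COL17A1, ITGB4, S100A2, AREG, TGFA, DSP and PKP2 are above their means in the 3 left columns and below in the 3 right ones, while DST shows the reverse.

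Most genes in the lists of suprabasal and cornified genes and of hair keratins averaged below 1 CPM. KRT75, the hair follicle keratin given above, was in neither list. Of 16 symbols in the suprabasal and cornified list 15 were found and 8 had any count. IVL and LOR, which encode cornified envelope proteins, were at 0 in all libraries. KRT10, a suprabasal type I keratin, was the only one above 1 CPM on average, at 15.9 to 19.8 CPM. Of 16 hair keratins beside KRT81, 8 had any count and KRT34 alone averaged above 1 CPM. KRT34, a type I hair keratin, stood at 5.02, 0.290 and 3.74 CPM in control and at 0.531, 12.6 and 0.351 CPM in KO, high and low in the same libraries as KRT81, and was at −3.34 (log2, SE 0.40, edgeR adjusted p = 0.0019) without both R2 libraries. KRT19, a simple keratin without a type II partner of its own, had at most 0.0531 CPM.

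Markers of mammary layers did not move as 1 group, and their counts without both R2 libraries stand beside 12.2% of all genes higher and 15.2% lower. Of 14 basal and myoepithelial markers tested beside the members, 0 were called by label. With both R2 libraries left out, 4 were higher, among them EGFR at 0.67 (SE 0.12) and NGFR at 3.19 (SE 0.36), and 6 were lower, among them VIM, encoding vimentin, at −0.98 (SE 0.18) and the contractile gene MYLK at −3.84 (SE 0.29). Of 8 luminal markers tested, 1 was higher and 1 lower, KRT18 at 0.53 (SE 0.12) and KRT8 at −1.08 (SE 0.17). PGR, ELF5, KIT and CLDN3 were at 0 in all 6 libraries and ESR1 had at most 0.483 CPM. Summed luminal markers ran from 534 to 671 CPM in control and from 587 to 669 CPM in KO. KRT18 and KRT8 held most of that sum and were high in different libraries, so it describes the other markers little. KRT18 stood at 322, 425 and 274 CPM in control and at 423, 326 and 455 CPM in KO. KRT8 stood at 237, 140 and 188 CPM in control and at 89.3, 194 and 116 CPM in KO.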

How the data were processed

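Gene-level expected counts of RSEM, unnormalized and with 1 column per library, are what the authors deposited. RSEM, Bowtie2, edgeR and GRCh38 are named without versions or roles, per the submitters' processing notes; for the annotation release and the strand setting the sources used here give nothing. Counts were rounded, and edgeR 4.0.16 (R 4.3.3, limma 3.58.1, DESeq2 1.42.0 as an alternative) was run with TMM factors and filterByExpr over all genes, with Benjamini-Hochberg adjustment and a threshold of 0.05. Library totals were 16312184 to 22970823 expected counts. Each SE is the absolute fold change divided by the square root of F. Gene positions and transcripts are from GENCODE release 29 (GRCh38), which may differ from the authors' release; lengths are those of the principal transcript. The named genes were the 10 members, DAPK3, the 3 nearest profiles (prior count 2) of each member averaging at least 1 CPM, of which the text gives a part, and the 3 most expressed genes of each list. Other genes were named after their values were seen. Members and lists were chosen with earlier results of these data known. Some genes of the lists are not reported here.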

Additional observations from a re-analysis of the deposited data

How the results depend on the processing

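RLE, upper-quartile and library-size scaling, both other filters, limma-voom and each library left out gave 0 genes and 0 members called, as did the fit with the DAPK3 term; DESeq2 called 114 genes. Leaving out both R2 libraries was tried only once the data had been seen, and there edgeR called 4055 genes, DESeq2 3888 and limma-voom 4095, with 8 members in each. The count of members whose groups do not overlap was 1 with all libraries, where the share over all genes tested was 13.6%. Without both R2 libraries it was 8, 7 higher and 1 lower, beside 33.8% and 32.4% of all genes. With 1 library left out it ran from 1 to 6 (6 without control R2, 2 without control R3, 2 without KO R2). Smaller groups separate more easily, and the share over all genes was not computed with 1 library left out. Those counts therefore have no background beside them. Deviations from the label means correlated at −0.65, −0.85 and −0.70 between libraries of the same number, and 0 genes were called with the replicate block. These correlations cannot decide whether the replicate numbers pair the libraries, because both R2 libraries stood apart from the rest of their label groups. Control R1 with KO R3 (−0.61) and control R3 with KO R1 (−0.36) were negative too. Pairs of unlike number that held an R2 library correlated at 0.61 to 0.79. KRT6A, at −0.09, turned to 0.35 with the replicate block, 0.21 with limma-voom and 1.49, 1.5 and 1.47 without both R2 libraries in edgeR, DESeq2 and limma-voom; KRT81 turned to 0.32 with the DAPK3 term. With 1 library left out, log2 fold changes ran from −0.66 to 4.89 for KRT5, −0.25 to 3.49 for KRT14, 0.46 to 4.37 for KRT17, 1.06 to 3.56 for KRT16, −1.25 to −0.43 for KRT15, −0.51 to 1.13 for KRT6A, −3.50 to 0.08 for KRT81 and −0.0001 to 0.93 for TP63; the cause was not tested. By coding length the type II to type I ratio was 111 in control R3 and 66.4 in KO R2, and it was higher than by transcript length in all 6 libraries. KRT6B and KRT81 are limited by depth, with as few as 1.03 and 1 expected counts.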
